A study of Mus musculus with 80 samples.

Results

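The untreated arms of a mouse liver study were compared by how the animals had been dosed. The members were the 20 control arrays of 80 in the series, chosen by the zero dose in their titles: 8 from mice given the vehicle by stomach tube and 12 from mice given diet without compound. The gavaged controls received 0.5% carboxymethyl cellulose, a thickening agent, with 4 arrays after 7 d and 4 after 28 d. The feed controls numbered 6 arrays at 7 d and 6 at 28 d. All mice were male B6C3F1, a first-generation hybrid strain, and all tissue was liver. Elsewhere in the series androstenedione (A4) was gavaged, while the diet carried either prednisone (PRED) or ethinyl estradiol (EE2). Route, vehicle and any separate handling of the gavaged mice cannot be told apart. Nothing in the labels ties an array to a separate animal, so the p-values speak of variation among arrays, part of which may be technical.

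Gavage involves restraint and a tube passed into the stomach, and handling of this kind is known to raise corticosterone in rodents. Corticosterone acts on hepatocytes through the glucocorticoid receptor, whose targets include Fkbp5, Tsc22d3 and Per1, while inflammation elsewhere in the body makes the liver release acute phase proteins under the control of interleukin-6. The timing of food intake sets the liver's clock and its lipid synthesis.

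The deposited intensities are on a linear scale with a background near the array median, which lay between 105.7 and 106.4 on the control arrays. Each control array had between 8019 and 8726 entries detected. Differences are given as gavage minus feed on the log2(intensity + 16) scale. Transthyretin (Ttr), a plasma carrier protein chosen after its values were seen, ranged from 10107 to 16710, and Apoa1, Cyp2e1, Cps1, Trf and Hnf4a, all products of hepatocytes, were detected on all 20 arrays. The entry for albumin (Alb) ranged from 98.8 to 409.4 and was detected on 15 arrays, and that for the amino acid enzyme Tat was detected on 2. The 13 lists of cell type markers had median differences between -0.04 and 0.03 over both durations.

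A pair of arrays stood apart in a principal component analysis of the 20. On the second component, with 26.3% of the variance, feed control 7-day replicate 2 had a score of 32.5, and on the third, with 9.87%, gavage control 7-day replicate 4 had a score of 19.3. The first component, with 32.1%, had the acute phase genes Lcn2, Orm2 and Saa1 and metallothionein Mt1 at its negative end and Sucnr1 and the drug-metabolising Cyp3a11 at the other. The 6 feed arrays at 7 d lay together on its negative side, between -13.8 and -3.9. The gavage arrays at 7 d spread from -13.9 to 15.7, those at 28 d from -8.2 to 14.3, and the feed arrays at 28 d from -9.5 to 23.3, so neither route formed a cluster of its own.

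**Figure D1:**
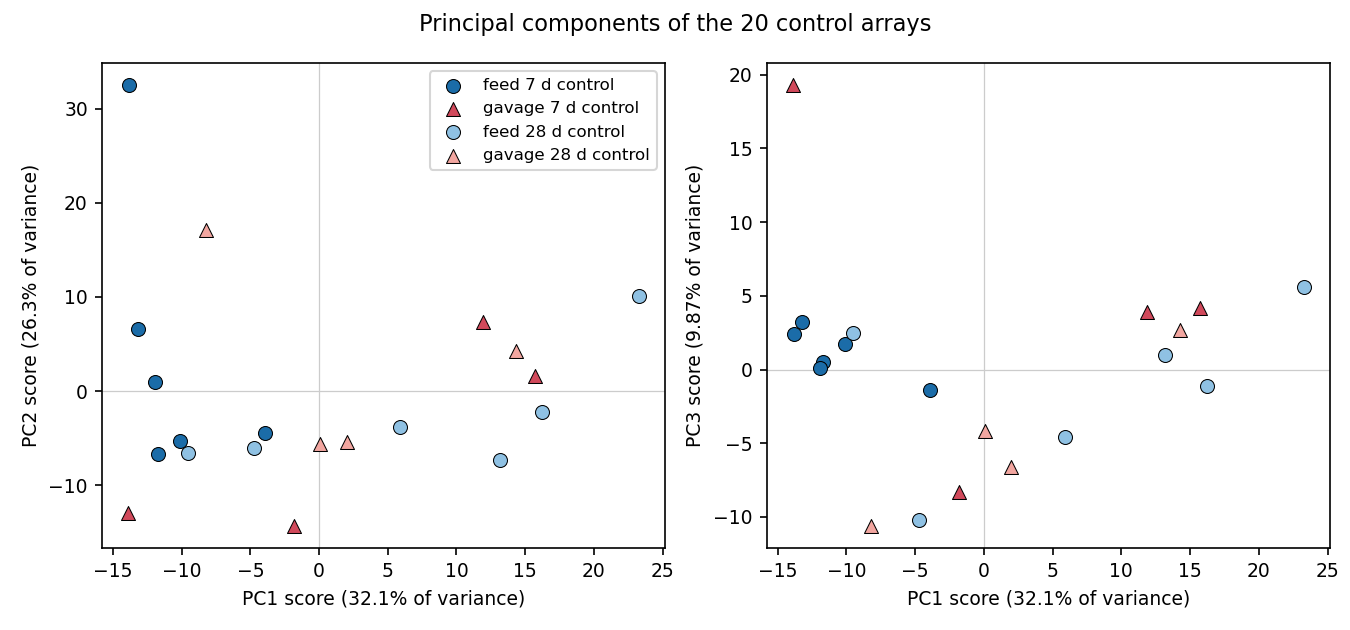
Scores of the 20 control arrays on principal components 1, 2 and 3, 1 point per array, marked by route and duration. Feed 7 d arrays lie between -13.8 and -3.9 on component 1, while the other 3 groups each span both sides of 0.

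Over both durations, no gene was called higher or lower in gavaged than in feed controls. With limma and duration as a block, 0 of 11352 genes tested passed a Benjamini-Hochberg adjusted p of 0.05 (0%). At an unadjusted p under 0.05 there were 244 genes (2.15%), with 0.969% of all genes higher in gavage and 1.18% lower. The 95% confidence interval of the difference lay within 1.5-fold either way for 97.4% of genes and within 2-fold for 99.7%. A difference over both durations can hide differences of opposite sign at each. At the separate durations the interval lay within 1.5-fold for 88% of genes at 7 d and 91.8% at 28 d. These shares include genes near background, for which a fold on this scale understates the change. The median size of a difference was 0.0267 over both durations, 0.0586 at 7 d and 0.0411 at 28 d. The median spread between arrays of one group was 0.113 (SD). No gene had every gavage array on the same side of every feed array at both durations. Without the pair of arrays that stood apart, 0 genes were called and 536 had an unadjusted p under 0.05. That second count also moved by over 1.5 times without gavage 28-day replicate 1 (523) or gavage 7-day replicate 4 (373), and with chip as a fixed block (637). Array weights (418) and no filter on detection (571 of 18130 genes) likewise moved the count by over 1.5 times.

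The genes of smallest p over both durations were picked as 8 higher and 8 lower with gavage, none of them past the threshold. Only genes with the same sign at 7 and 28 d, 33.8% of all, could be picked, so that likeness between durations was set by the choice. Claudin 5 (Cldn5), a tight junction protein of endothelial cells, read 311.1, 302.4, 277.4 and 347.9 in the gavage controls at 7 d and 380.4, 345.7, 319.2 and 294.5 at 28 d. The feed controls read 244.5 to 311.1 with a median of 264.8 at 7 d and 211.8 to 289.6 with a median of 280.5 at 28 d. The gavage arrays at 28 d all lay above the feed arrays of that duration, and at 7 d the groups overlapped. The difference was 0.24 (95% interval 0.11 to 0.38, limma adjusted p = 0.999). Cdkn1a, the cell cycle inhibitor p21, had the largest difference of the 16, -0.33 (95% interval -0.55 to -0.10, limma adjusted p = 0.999). At 7 d its gavage arrays read 153.6, 160.3, 124.6 and 152.8 and its feed arrays 182.1 to 275.0 with a median of 200.3, with no overlap. At 28 d gavage (216.9, 146.4, 118.95 and 136.8) overlapped feed (141.1 to 223.4 with a median of 165.4).

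Of the other genes of small p, those higher with gavage included Plxna1, a semaphorin receptor, at 0.23 (95% interval 0.10 to 0.37) and Nt5c3, a pyrimidine nucleotidase, at 0.22 (0.09 to 0.36). Those lower with gavage included the RNA-binding protein Igf2bp2 at -0.18 (-0.29 to -0.08), Fam98a at -0.20 (-0.32 to -0.07) and Timm29, a part of the mitochondrial import machinery, at -0.16 (-0.27 to -0.05). Ctrl, Grasp, Slc15a2, Piwil1 and Timm13 were detected on 3 to 9 of the 20 arrays and sat near background, so no difference is given for them. A separate set of 16 treated arrays at 7 d shares no sample with the controls: A4 by gavage at 2 and 10 mg/kg/day against PRED in feed at 1.25 and 2.5 ppm. There, compound and route cannot be told apart. That comparison called 0 of 11352 genes (0%), with 635 (5.59%) at an unadjusted p under 0.05, 3.30% higher and 2.29% lower in gavage. Of the 16 genes above, 13 had the same sign in it, and Nt5c3, Gzf1 and Cdkn1a had an unadjusted p under 0.05. Across all genes tested, its differences correlated at 0.33 with those of the controls over both durations. The share of all genes with the same sign in both was not computed, so the 13 of 16 has no such share beside it.

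Among glucocorticoid receptor targets, none of 20 tested members was called over both durations. The list median was -0.04 beside -0.00 over all genes tested, and 3 members, Ddit4, Lcn2 and Cdkn1a, had an unadjusted p under 0.05, all lower with gavage, beside 1.18% of all genes lower at that level. Lcn2 is also on the acute phase list. Fkbp5, a chaperone that the receptor induces strongly, read 136.1, 146.01, 155.2 and 270.9 with gavage at 7 d and 164.8, 123.4, 146.3 and 145.8 at 28 d. Feed controls read 139.9 to 241.5 with a median of 152.8 and 131.1 to 180.8 with a median of 145.2, and the groups overlapped at both durations. The difference in Fkbp5 was -0.01 (95% interval -0.25 to 0.23). Tsc22d3, which encodes the anti-inflammatory protein GILZ, read 540.8, 934.0, 1050 and 490.4 with gavage at 7 d and 351.3, 871.3, 758.5 and 550.7 at 28 d. Its feed controls read 388.4 to 662.4 with a median of 589.6 and 703.3 to 1232 with a median of 862.2. At 7 d gavage replicates 2 and 3 lay above every feed array, and at 28 d gavage replicates 1 and 4 lay below every feed array. Over both durations the Tsc22d3 difference was -0.10 (95% interval -0.55 to 0.34). In the low-dose arrays Fkbp5 read 127.7 to 205.8 with a median of 155.7 with gavaged A4 and 118.98 to 382.2 with a median of 246.3 with fed PRED, and PRED is itself a glucocorticoid.

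Immediate early and clock genes also gave no call over both durations. Among 13 immediate early genes, the median difference was -0.01 and 1, Gadd45g, had an unadjusted p under 0.05. Egr1, a transcription factor switched on within minutes of many stimuli, read 1832, 1800, 595.0 and 3471 with gavage at 7 d and 645.4, 355.5, 847.3 and 1381 at 28 d. Its feed controls read 161.8 to 2800 with a median of 1514 and 384.9 to 2254 with a median of 896.1, so both routes spread widely and overlapped. Its 95% interval ran from -0.87 to 1.42. Fos was near background, with 11 of 20 arrays detected. Of 18 clock genes tested, 0 were called and the median was -0.01. Dbp, a clock output factor with a steep daily rhythm, read 156.8, 140.3, 1386 and 848.8 with gavage at 7 d and 184.1, 139.1, 683.2 and 253.8 at 28 d. Its feed controls read 185.5 to 793.2 with a median of 244.6 and 150.2 to 1475 with a median of 475.7. The routes overlapped at both durations, and the interval was -1.28 to 0.95. Per1, which both the clock and the glucocorticoid receptor drive, differed by -0.03 (-0.25 to 0.19).

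The acute phase gene Lcn2 had the largest spread between arrays of one group of any gene tested, an SD of 1.71 on the log2 scale. Over both durations 5 genes differed by more than 2-fold, none of them called: Lcn2, the acute phase gene Saa1, Mt1, the chemokine Cxcl1 at -1.06 and the stress gene Gadd45g at -1.06. Of 22 acute phase genes tested, none was called, and 5 had an unadjusted p under 0.05, all lower with gavage: Saa1, Saa2, Lcn2, Serpina3n and Socs3. Of all genes, 1.18% were lower with gavage at that level. The list median was -0.10 over both durations, -0.26 at 7 d and -0.02 at 28 d. Lipocalin 2 (Lcn2), an iron-sequestering defence protein chosen here after its values were seen, read 586.1, 164.4, 130.2 and 6759 in the gavage controls at 7 d and 2119 to 16265 with a median of 5075 in the feed controls. At 28 d gavage read 298.2, 264.5, 159.3 and 311.7, and feed read 135.6 to 383.1 apart from replicate 2 at 6100. All 6 feed arrays at 7 d were therefore high, together with gavage replicate 4 at 7 d and that 1 feed array at 28 d. The difference in Lcn2 was -1.87 over both durations (95% interval -3.53 to -0.22, limma adjusted p = 0.999), and -2.09 without the pair of arrays that stood apart. At 7 d it was -3.22 (-5.44 to -1.0, limma adjusted p = 0.307).

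Serum amyloid A1 (Saa1), a major acute phase protein of mouse, had the same arrays high. Gavage read 549.7, 149.4, 125.2 and 1328 at 7 d and 158.9, 189.1, 151.1 and 143.6 at 28 d. Feed read 924.3 to 1706 with a median of 1050 at 7 d and, apart from replicate 2 at 2507, 120.02 to 161.8 at 28 d. Its difference was -1.07 (95% interval -2.14 to -0.01, limma adjusted p = 0.999), and its close paralog Saa2 could share probe signal. Orosomucoid 2 (Orm2), a plasma glycoprotein, read 2298, 583.9, 764.7 and 9920 with gavage at 7 d against 2281 to 13489 with a median of 5503 with feed, and 926.5, 748.2, 858.8 and 953.8 at 28 d against 309.5 to 3783 with a median of 653.8. Metallothionein 1 (Mt1), a zinc-binding protein induced by glucocorticoids and inflammation, read 691.0, 428.9, 2009 and 17265 with gavage at 7 d against 1609 to 13401 with a median of 7375 with feed. At 28 d Mt1 read 1360, 747.5, 704.7 and 777.8 against 435.9 to 9447 with a median of 921.7. At 7 d gavage replicates 1 and 4 of Orm2 lay inside the feed range, and in Mt1 replicate 3 lay inside it and replicate 4 above it. The other gavage arrays lay under the feed range in both genes. The difference was -0.71 (-1.85 to 0.43) in Orm2 and -1.11 (-2.47 to 0.25) in Mt1.

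Low-dose treated arrays at 7 d also varied widely in Lcn2, from 202.3 to 14639 with gavaged A4 and from 334.6 to 18156 with fed PRED. Their difference was -1.69 (95% interval -3.75 to 0.37). Each bead chip carried 8 arrays, and 3 chips held controls of both routes. Within them, the 2 chips with both routes at 7 d gave Lcn2 differences of -6.50 and -4.07, and the 2 with both at 28 d gave 0.85 and -0.04. Each 7 d value set 1 gavage array against 1 feed array. The value of -6.50 used feed control 7-day replicate 2, which stood apart. Macrophage markers summed to 4708 to 6718 in the feed arrays at 7 d and 2960 to 9007 in the gavage arrays. Neutrophil markers summed to 687.2 to 1346 and 628.3 to 1102. Their part in the acute phase readings was not tested. In bulk liver, fewer cells of a type and less RNA per cell cannot be told apart.

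**Figure D2:**
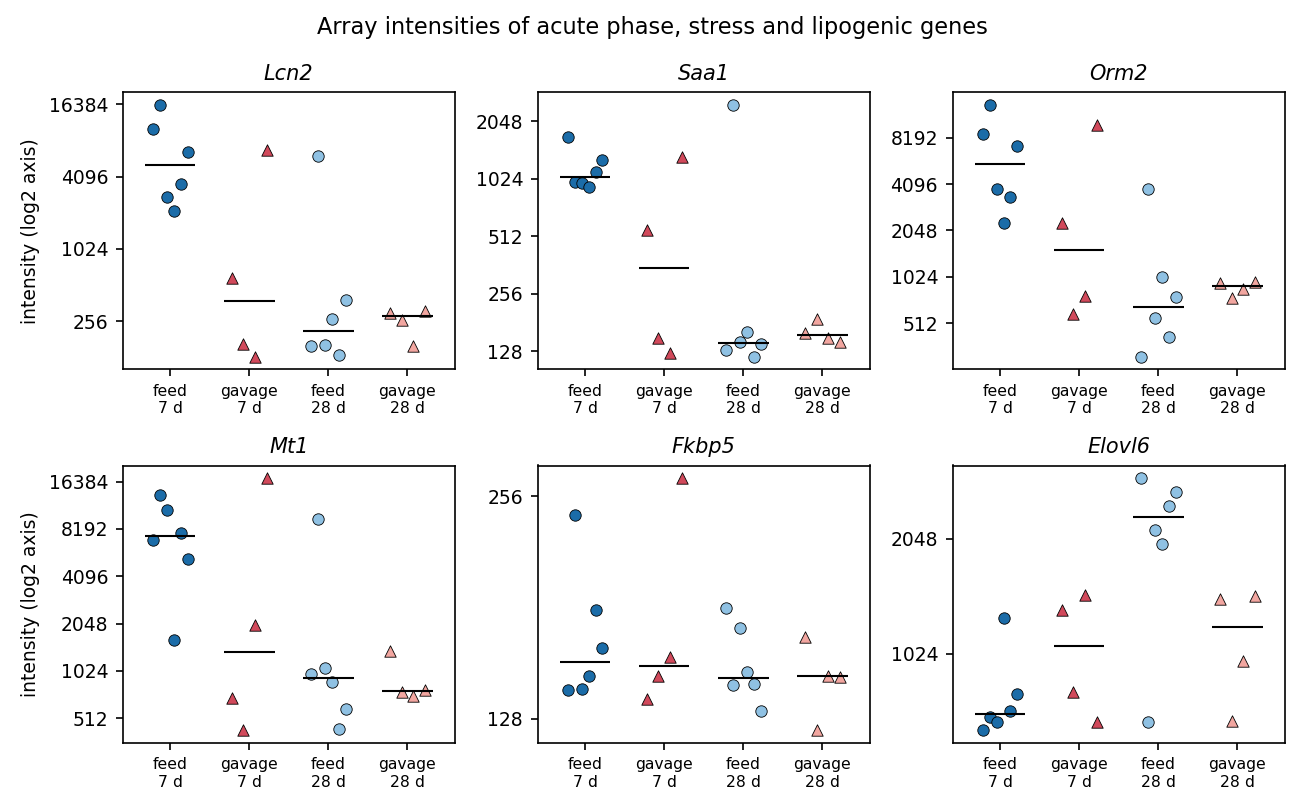
Intensity of 6 genes in each control array (log2 axis), by route and duration, with a line at each group median. Lcn2 and Saa1 were high in the feed arrays at 7 d, in gavage replicate 4 at 7 d and in feed replicate 2 at 28 d. In Orm2 gavage replicate 1 at 7 d (2298), and in Mt1 gavage replicate 3 at 7 d (2009), also reached the feed range, while Fkbp5 overlapped between routes and Elovl6 was at 1984 or above in the feed arrays at 28 d other than replicate 2.

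Metabolic lists had medians near 0 over both durations, and several had medians of opposite sign at the separate durations. Fatty acid synthesis had 17 tested members, none called, with a median of -0.03 over both durations, 0.25 at 7 d and -0.35 at 28 d. Elovl6, which elongates palmitate and was chosen after its values were seen, read 1334, 811.1, 1460 and 675.8 with gavage at 7 d against 644.5 to 1272 with a median of 710.3 with feed. At 28 d it read 1422, 680.5, 981.1 and 1454 against 679.1 to 2958 with a median of 2333. The feed arrays at 28 d were above every gavage array except for replicate 2, which was also the array with high acute phase readings. Over both durations Scd1, the stearoyl-CoA desaturase, differed by -0.02 (95% interval -0.29 to 0.25) and Fasn, the fatty acid synthase, by -0.06 (-0.32 to 0.20). Cholesterol genes had a median of -0.08 over 18 tested members. Sqle, an enzyme that oxidises squalene toward cholesterol, differed by -0.31 (-0.68 to 0.07), and by a mean of -0.71 within the shared chips.

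Cyp7a1, the rate-limiting enzyme of bile acid synthesis, read 308.8, 527.6, 223.4 and 255.4 with gavage at 7 d and 593.2, 1071, 289.3 and 424.1 at 28 d. It overlapped feed at both durations, at 356.9 to 930.9 with a median of 487.3 and 302.9 to 502.4 with a median of 409.4. Its difference was -0.14 (95% interval -0.68 to 0.40). Bile acid genes had a median of 0.08 over 19 tested members, gluconeogenic and amino acid catabolic genes 0.05 over 19, and cytosolic ribosomal proteins -0.05 over 17. Pck1, the entry enzyme of gluconeogenesis, differed by 0.06 (-0.18 to 0.29) and was chosen after its values were seen. Of all 41 lists, MHC class II had the highest median, 0.20 over 7 members with none called. Cd74, its invariant chain and likewise chosen afterwards, read 982.7, 1112, 819.9 and 3613 with gavage at 7 d against 906.9 to 1475 with a median of 1076 with feed, so that replicate 4 alone lay above the feed range. Across the lists 465 members were tested, 0 were called and 17 had an unadjusted p under 0.05, beside 2.15% of all genes.

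**Figure D3:**
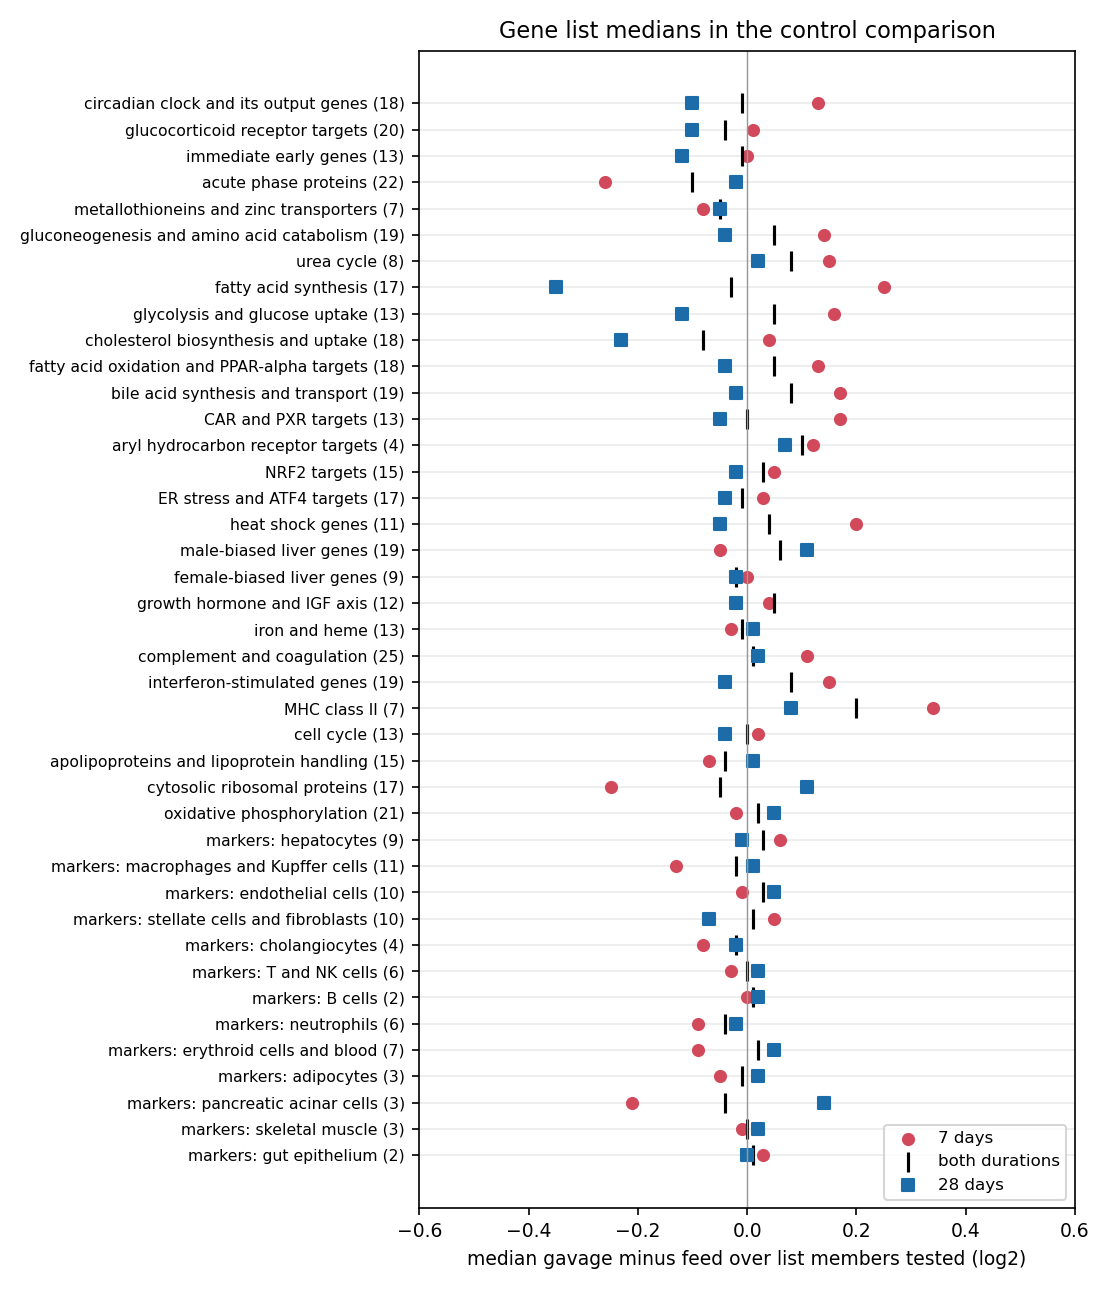
Median gavage minus feed difference (log2) of the tested members of each gene list, at 7 d, at 28 d and over both durations. The medians over both durations lie between -0.10 and 0.20. Fatty acid synthesis has its 7 d median at 0.25 and its 28 d median at -0.35, and acute phase proteins their 7 d median at -0.26.

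At the separate durations, 2 genes (0.0176%) were called at 7 d and 0 (0%) at 28 d. At an unadjusted p under 0.05 there were 1329 (11.7%) at 7 d, 5.63% of all genes higher and 6.08% lower in gavage, and 443 (3.90%) at 28 d, 1.47% higher and 2.43% lower. At 7 d the routes did not overlap in 2.75% of genes, with 0.810% above and 1.94% below feed, and at 28 d in 1.20%, with 0.546% above and 0.652% below. The amyloid precursor protein App, a membrane protein, was higher with gavage at 7 d. Its arrays read 606.6, 585.4, 493.4 and 595.8, all above the feed controls at 326.6 to 459.0 with a median of 345.4, and it stood 0.60 higher (SE 0.094, limma adjusted p = 0.0339). Mpv17l, a membrane protein of peroxisomes and mitochondria, was lower with gavage at 7 d, at 214.6, 222.9, 223.7 and 192.5 against 257.2 to 285.6 with a median of 266.6. It differed by -0.32 with no overlap (SE 0.044, limma adjusted p = 0.0152). At 28 d App read 438.9, 470.5, 464.2 and 444.6 with gavage against 460.0 to 609.3 with a median of 519.3, and Mpv17l read 241.8, 235.8, 256.1 and 263.6 against 219.8 to 249.0 with a median of 228.2, with overlap in both. Neither gene was called without the pair of arrays that stood apart, at limma adjusted p-values of 0.170 for App and 0.137 for Mpv17l. In the low-dose arrays App differed by 0.11 (95% interval -0.09 to 0.31) and Mpv17l by 0.13 (0.02 to 0.24), the latter opposite in sign to the controls.

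The calls at 7 d also moved with single arrays. None was left without gavage 7-day replicate 1 or 4 or feed 7-day replicate 5, and 3 genes were called without feed 7-day replicate 4 or feed 28-day replicate 1. Only 1 gene was called without feed 7-day replicates 1, 2 or 6, gavage 7-day replicate 2, feed 28-day replicates 3 or 6, or any 1 of the gavage 28-day arrays. Mpv17l kept its call in 17 of the 20 fits that each left out 1 array, and App in 7. At 28 d 1 gene was called without feed 28-day replicate 2. Of genes with large differences that were not called, Etnppl, a liver phospholyase, was at 1.26 at 7 d (95% interval 0.50 to 2.03, limma adjusted p = 0.283). Mfsd2a, a lipid transporter, was at -1.30 at 28 d (-2.01 to -0.58, limma adjusted p = 0.892), where it read 450.5, 254.3, 446.7 and 250.6 with gavage and 648.1 to 1052 with a median of 893.4 with feed, with no overlap. Both genes were chosen after their values were seen.

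The route difference itself changed between durations for 15 genes (0.132%), with 1528 (13.5%) at an unadjusted p under 0.05, 6.83% of all genes with a higher and 6.63% with a lower difference at 28 d. All 15 had opposite signs at 7 and 28 d, 11 higher and 4 lower with gavage at 7 d. The contrast that chose them favours opposite signs, and of all genes tested only 33.8% had the same sign at both durations. Mup4, a major urinary protein that carries pheromones, had the largest change among the 15. It read 604.9, 679.9, 701.6 and 807.8 with gavage against 1295 to 1846 with a median of 1514 with feed at 7 d, and 1004, 1239, 1321 and 1542 against 411.1 to 1113 with a median of 796.5 at 28 d. Every gavage array was below every feed array at 7 d, and at 28 d 3 of the 4 gavage arrays were above every feed array. Its difference at 28 d exceeded that at 7 d by 1.81 (SE 0.30, limma adjusted p = 0.0357). The entry had a detection p under 0.05 on only 4 of the 20 arrays despite these intensities, and its close paralogs could share its probe, so the value is uncertain.

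Of the 11 called genes that changed the other way, the largest values were in Bach1, a heme-sensing repressor, at -1.45 (SE 0.27, limma adjusted p = 0.0461), and Ppargc1a, the coactivator PGC-1alpha, at -1.16 (SE 0.20, limma adjusted p = 0.0370). They were followed by Tbl1x, part of a nuclear receptor corepressor complex, at -1.13 (SE 0.21, limma adjusted p = 0.0411), and Gna13, a G protein subunit, at -1.11 (SE 0.20, limma adjusted p = 0.0370). Bach1 read 378.5, 413.3, 260.4 and 300.2 with gavage and 130.6 to 265.2 with a median of 189.4 with feed at 7 d, and 168.4, 179.7, 173.1 and 207.3 against 194.02 to 476.9 with a median of 304.4 at 28 d, with overlap at both. Ppargc1a read 303.6, 228.7, 239.1 and 220.8 against 127.8 to 204.5 with a median of 146.4 at 7 d, with no overlap, and 156.3, 145.5, 150.1 and 163.4 against 162.9 to 316.1 with a median of 227.9 at 28 d, where the ranges met. Smarce1, a chromatin remodelling subunit, and Samd10 changed by 0.46 (SE 0.082) and 0.30 (SE 0.052), each with a limma adjusted p of 0.0370. App changed by -0.81 (SE 0.13, limma adjusted p = 0.0357) and Mpv17l by 0.42 (SE 0.063, limma adjusted p = 0.0320). At 7 d 10 of the 15 genes had no overlap between routes, beside 2.75% of all genes, and at 28 d 8 did, beside 1.20%. The contrast that chose the 15 used these same arrays, so the counts follow in part from that choice.

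The 15 calls were not stable. With the number in the sample names as a random block, 0 genes were called, and 0 were called when arrays of one group sharing a number were averaged. That number, whose meaning is not stated, was shared by 9 control arrays among 4 numbers. A letter follows the number in the names, and no control array shares both with another. Leaving out single arrays gave between 0 and 72 calls. There were 0 without feed 7-day replicates 5 or 6, feed 28-day replicates 3 or 5, or gavage 28-day replicates 1, 3 or 4. There was 1 without feed 7-day replicate 1, gavage 7-day replicate 2 or gavage 28-day replicate 2, and there were 2 without feed 28-day replicate 6. Leaving out gavage 7-day replicate 1, feed 28-day replicate 1 or feed 7-day replicate 2 left 4, 7 and 9. More were called without feed 7-day replicate 3 (26), gavage 7-day replicate 3 (33), feed 28-day replicate 2 (35), feed 7-day replicate 4 (42) and feed 28-day replicate 4 (72). Without the pair that stood apart, 6 were called. Within shared chips, App differed by 0.76 and 0.79 at 7 d and by -0.46 and -0.31 at 28 d, and Mup4 by -1.21 and -1.08 at 7 d and by 1.26 and 0.85 at 28 d. Each of these 7 d values set 1 gavage array against 1 feed array. Those of 0.76 and -1.21 used feed control 7-day replicate 2, which stood apart. In the low-dose arrays 13 of the 15 had the sign of the 7 d difference, and the 1 with an unadjusted p under 0.05 was Mpv17l, with the opposite sign. Across all genes tested, the 7 d and low-dose differences correlated at 0.364. The share of all genes with the same sign in both was not computed, so whether shared signs were particular to the 15 was not tested.

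**Figure D4:**
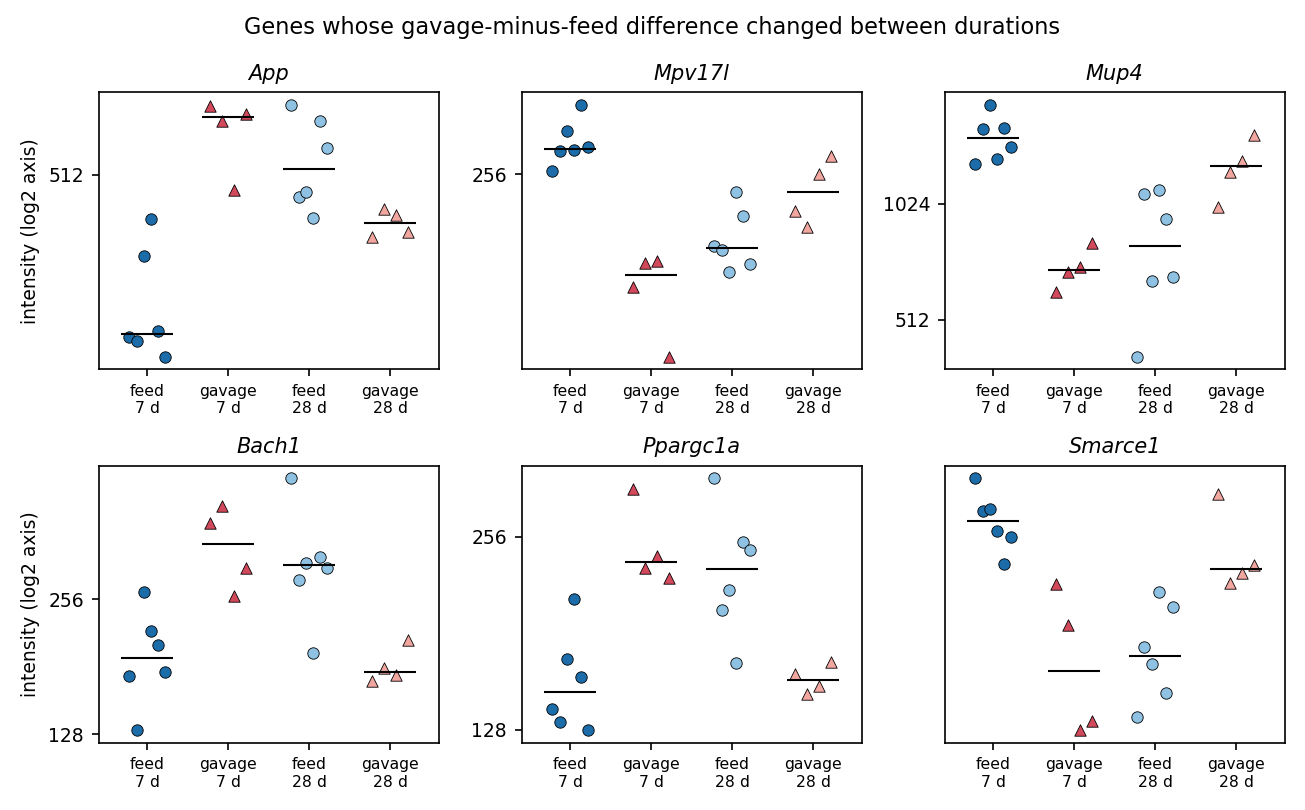
Intensity of 6 of the genes whose gavage minus feed difference changed between durations, in each control array (log2 axis), with group medians as lines. App, Bach1 and Ppargc1a have the higher gavage median at 7 d and the lower at 28 d, and Mpv17l, Mup4 and Smarce1 run the other way.

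Differences at the 2 durations tended to have opposite signs. Over the 11352 genes, the gavage minus feed difference had the same sign at 7 and 28 d for 33.8%, and the correlation across genes was -0.512. Genes are not independent replicates, though the 2 durations share no array. Ribosomal protein genes had list medians of -0.25 at 7 d and 0.11 at 28 d, none called. Their summed intensity ran from 63063 to 68606 in the feed arrays at 7 d and from 47782 to 71791 in the gavage arrays, and from 44155 to 73330 and 49434 to 72492 at 28 d. Of 17 fatty acid synthesis genes, 10 had an unadjusted p under 0.05 for a lower difference at 28 d than at 7 d, none called, beside 6.63% of all genes. Whether either list had a part in the calls was not tested.

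**Figure D5:**
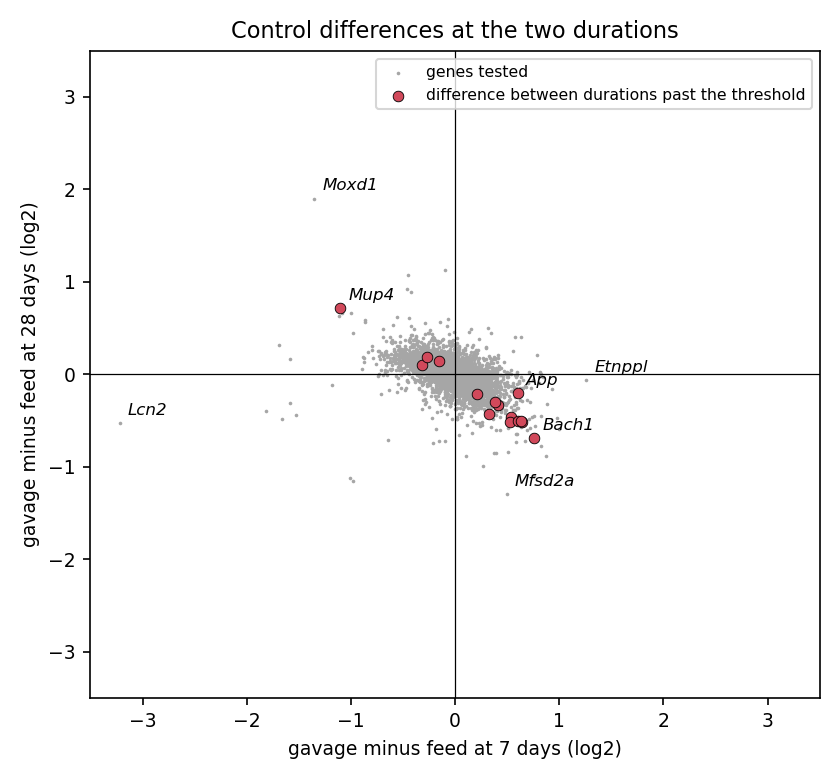
Gavage minus feed difference (log2) at 7 d (x axis) and at 28 d (y axis) for the 11352 genes tested, with the 15 genes whose difference changed between durations marked. The correlation is -0.512 across genes, and all 15 marked points lie in the quadrants of opposite sign.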

How the data were processed

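Liver RNA was hybridised to Illumina bead arrays. Per the labels' protocols, biotinylated cRNA was made from total RNA, and per the submitters' processing notes GenomeStudio was used, with no version named. The authors deposited 1 normalized intensity per gene and array on a linear scale, with a detection p-value beside each. How they were normalized is not stated in the sources used here. Of 18138 entries, 8 array controls were left out, and 11352 genes, detected (p under 0.05) on 4 or more of the 80 arrays, were tested. log2(value + 16) was fitted with limma 3.58.1 in R 4.3.3, over the 20 control arrays, with duration as a block, as 4 group means for the separate durations and their difference, and on 16 low-dose arrays. Tests were two-sided at an adjusted p of 0.05. A fold on this scale understates the change of weak genes, and the number of arrays limits precision. The fit was tested on simulated data. The arrays, the gene lists and the settings tried were chosen with earlier results of these data known. The named genes were the 8 of smallest p in each direction over both durations, up to 4 called genes in each direction from every other control fit, and preset list members, unless stated as chosen after values were seen. Gene symbols are the deposited ones, of which 2703 were updated to current RefSeq symbols and 1128 were not found. Settings tried were the pseudocount, the filter, array centring, quantile normalization, chip or sample-name number as a block, array weights, moderation, the arrays fitted, and leaving out arrays. Principal components were computed on the same log2 values.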

Additional observations from a re-analysis of the deposited data

Results flagged for a closer look

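Each group of 4 or 6 control arrays was searched, for every gene named by the rule or afterwards, for an array whose gap to the nearest other exceeded Dixon's 95% critical value as a share of the group's range. Of 212 groups searched, 23 held such an array. Chance flags about 1 in 20 groups, but that rate is no fair comparison for this count, because 14 of the genes were chosen after their values were seen and several share an array. The largest set was in feed control 28-day replicate 2, which read 2507 for Saa1 (share of range 0.908), 1397 for Saa2 (0.940), 975 for Saa3 (0.879), 6100 for Lcn2 (0.738), 9447 for Mt1 (0.711) and 152.9 for Mt2 (0.788), all above the other 5 arrays, and 679 for Elovl6 (0.727), below them. Gavage control 7-day replicate 4 read high for Mt2 (0.850), Sqle (0.916), Igfbp1 (0.883) and Piwil1 (0.930). Feed control 7-day replicate 2 read high for Dbp (0.684) and Shroom3 (0.678), and replicate 4 of that group for Elovl6 (0.682). Among the gavage controls at 28 d, replicate 1 was high for Mt1 (0.851) and Samd10 (0.873) and low for Slc15a2 (0.861). Single arrays also stood off for Per1 in gavage control 7-day replicate 3 (0.830), Dscr1 (0.842) and Alb (0.973) in replicate 2 of that group, Gzf1 in feed control 7-day replicate 3 (0.627), Nt5c3 in feed control 28-day replicate 1 (0.653) and Grasp in its replicate 6 (0.668). The Alb array read 103.8 against 109.04 to 109.19, near background. Piwil1, Grasp and Slc15a2 also sat near background, so their flags rest on small gaps in intensity.

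For 9 of the named genes the route difference at 28 d departed from that at 7 d in the test of that contrast: by -0.81 for App, 0.42 for Mpv17l, 1.81 for Mup4, 0.46 for Smarce1, 0.30 for Samd10, -1.45 for Bach1, -1.16 for Ppargc1a, -1.13 for Tbl1x and -1.11 for Gna13, on the log2 scale.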

How the results depend on the processing

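No paired analysis was possible because the labels give no replicate numbers to pair samples by. Chip as a fixed block, over both durations, gave 0 calls. Over both durations, 0 genes were called in every setting tried, with 1 array left out at a time, and with no duration term, and the low-dose comparison also called 0 throughout. At 7 d, the 2 calls became 1 without a filter on detection, with array weights and with the sample-name number as a random block, 0 with trend and robust moderation, in the fit of all 80 arrays, with same-number arrays averaged and without the pair that stood apart, and 0 to 3 with 1 array left out at a time. At 28 d, 1 gene was called with array weights, and 0 to 1 with 1 array left out. The count of 15 became 5 without a filter, 48 with chip as a random block, 272 with array weights, 25 with trend and robust moderation, 0 with the number as a random block, 0 with same-number arrays averaged, 6 without the pair that stood apart, and 0 to 72 with 1 array left out. The pair was left out as a choice made after seeing the data. Among the named genes, 1946 values under other settings were set beside the main fit. Of these, 1766 kept their side of the threshold or, within shared chips, stayed within the spread between arrays. A further 179 lost a call, 0 called values reversed and 1 moved. Most of the 1946 belonged to genes not called in the main fit, which had no call to lose. The 179 are therefore a larger share of the values that could lose one. For the change between durations, the called genes named kept their call in 5 (Bach1) to 13 (Mpv17l) of the 20 fits that each left out 1 array. The values that stayed or moved include 64 uncalled ones that changed sign. The cause of these shifts was not tested. Signal over background limits weak genes, and a p that misses the threshold does not show that the routes are alike.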
